A study of Mus musculus with 2 samples.

Results

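The imprinted Dlk1-Dio3 miRNA cluster was taken as every mouse entry of the array, star entries left out, whose position in the files lay on chromosome 12 between 110.7 and 111.6 Mb. It had 60 members among the 567 mouse miRNA entries of the array, or among the 453 that are not star entries. The rule used names and positions only, and no measured value, though it was set with earlier results of these data known. The measured RNAs were miRNAs, small RNAs that silence messenger RNAs, in adipocyte-derived microvesicles, the membrane vesicles that adipocytes shed into their medium. Vesicles came from 3T3-L1 cells, a mouse preadipocyte line that turns into fat-storing adipocytes after hormonal induction, and were spun down by ultracentrifugation from medium conditioned for 48 h. There were 2 groups, vesicles of day 2 to 4 and vesicles of day 8 to 10, each with 1 array on which 100 ng of RNA had been labelled with Cy3. Cells of both windows had 10% fetal calf serum and an induction mixture of insulin at 10 µg/ml, dexamethasone at 0.25 µM and 3-isobutyl-1-methylxanthine at 0.5 mM, per the labels' protocols.

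With 1 array a window there was no replicate, so no difference carries a p-value, and the number of arrays limits the precision. Standard errors (SE) and SDs below are over spots of an array and are technical. Both arrays lay on the same slide and scan, and preparation, hybridisation and window cannot be told apart. RNA carried over from serum was not told apart from cellular RNA. Each array had 100 ng of RNA labelled, so an intensity measures neither the number of vesicles nor the miRNA per vesicle. The labelled cell type was set beside fixed marker lists. These were chosen with earlier results of these data known, so they are no independent check. All 9 adipocyte-linked miRNAs of the list were detected on both arrays, 7 of them at least 2-fold higher at day 8-10 and none at least 2-fold lower. Of 6 fibroblast and mesenchymal miRNAs 5 were detected in each window, 2 of them at least 2-fold lower at day 8-10 and none at least 2-fold higher. Detected were, of 5 blood and serum miRNAs 4 and then 5, of 6 neural miRNAs 1 and 1, and of 3 muscle miRNAs none.

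The Dlk1-Dio3 domain is named for a pair of its paternally expressed genes. Dlk1 encodes Pref-1, a transmembrane protein of preadipocytes that holds back fat cell differentiation, and Dio3 encodes an enzyme that inactivates thyroid hormone. From the maternal chromosome the domain expresses long non-coding RNAs, Meg3, Rian, Mirg and the antisense transcript of Rtl1, together with one of the largest miRNA clusters of mammals. These miRNAs are known for high levels in embryo, placenta and brain.

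The members lay over 180053 bases in the files' own positions, for which the sources used here name no genome build. The first was miR-770-5p and the last miR-410. Of the 60 members, 19 lay before miR-379 and 41 from miR-379 to miR-410. Mature sequences from RefSeq (GRCm38.p6) were matched to 57 members, and those below all lie on the plus strand of chromosome 12. On that assembly 14 of the 57 lay within the span of Rtl1, among them miR-127, miR-136, miR-431 and miR-433, 11 within Mirg, 2 within Rian, 2 within Meg3 and 28 within none of these 4 genes.

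The sequences of the 5 members detected in the vesicles are shown first, because the comparison of the windows rests on them. Capitals mark the seed, bases 2 to 8, through which a miRNA finds its targets. In the order of their positions they lie at chr12:109563744-109563765, chr12:109618305-109618326, chr12:109682207-109682228, chr12:109715367-109715388 and chr12:109734145-109734166.
miR-770-3p: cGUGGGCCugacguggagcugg
miR-370-3p: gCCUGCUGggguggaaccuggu
miR-882: aGGAGAGAguuagcgcauuagu
miR-494-3p: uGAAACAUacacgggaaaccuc
miR-134-5p: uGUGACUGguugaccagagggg

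No seed was shared among these 5, nor between any of the 57 matched members, which had 57 distinct seeds. Among all other mouse mature sequences of RefSeq, the seed of miR-882 was found in miR-3473a, and the other 4 seeds were found in none. The array entries miR-370, miR-494 and miR-134 carry no arm in their names. Their arms, here and below, were assigned because the spacing of their 3′ ends in the files was that of RefSeq. Of the 24 members matched by name, 22 also kept that spacing, counting miR-770-5p, from which it was measured. The exceptions were miR-337-5p and miR-337-3p.

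Another view of the same sequences shows what the array reads. The probes pair with the 3′ end of a mature miRNA, over 10 to 22 bases for the members as a whole, and each member has 1 to 4 such probes of graded length. Capitals below mark the stretch that pairs with the longest probe of each detected member.
miR-770-3p, 13 bases: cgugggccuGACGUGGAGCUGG
miR-370-3p, 15 bases: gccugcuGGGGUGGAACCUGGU
miR-882, 20 bases: agGAGAGAGUUAGCGCAUUAGU
miR-494-3p, 15 bases: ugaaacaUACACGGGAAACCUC
miR-134-5p, 13 bases: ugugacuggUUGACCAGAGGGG

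Except for that of miR-882, these stretches leave the seed wholly or almost wholly unpaired. None of the 5 occurs in any other mouse mature sequence of RefSeq. Of all 16 stretches read by the probes of the detected members, 1 does so: the 10 bases of miR-770-3p's shortest probe occur in miR-7087-5p.

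Of the 60 members, 5 were detected at day 2-4 and 5 at day 8-10, or 8.33% in each window. They were the same 5 miRNAs: miR-770-3p, miR-370, miR-882, miR-494 and miR-134. This held by the rule used here. Where every spot of a probe had to be well above background, 4 were detected in each window, with miR-882 at day 2-4 alone and miR-770-3p at day 8-10 alone. Where 1 spot was enough, 7 and then 6 were, with miR-666-5p at day 2-4 alone. Where every probe of a miRNA had to be detected, 3 were in each window, without miR-770-3p and miR-882. With detection set at the 95th percentile of negative control spots, 8 and then 11 were. To be detected, a probe needed the software's flag for signal well above background on a share above 0.5 of its spots, and a miRNA needed 1 such probe. Over all 567 mouse entries 27.5% were detected at day 2-4 and 29.3% at day 8-10. Over the 453 that, like the members, are not star entries, 32.9% and then 34.7% were. No member was detected in 1 window alone. Of the 567 entries, 177 were detected on either array, 11 of these at day 2-4 alone and 21 at day 8-10 alone. With 5 detected members, the absence of such a case says little about the cluster.

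Other groups of entries gave larger shares, as a description. The Sfmbt2 cluster of repeat-derived miRNAs, also imprinted, had 8 of 22 entries detected in each window (36.4%). The miR-290 to miR-295 cluster, known from embryonic stem cells, had 3 of 11 (27.3%), and the miR-17 to miR-92a cluster with its paralogs had 7 and then 8 of 13 (53.8% and 61.5%). Of 9 imprinted miRNAs outside the range 2 were detected in each window (22.2%). The 13 star entries of the same range, the passenger arms of miR-127, miR-136, miR-376a, miR-433 and others, had none detected in either window.

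The detected members were scattered along the cluster. miR-770-3p lay at its start, miR-370 54.6 kb, miR-882 118.5 kb, miR-494 152 kb and miR-134 170.4 kb further on, in the files' positions. miR-370 and miR-882 were next to each other in the order of the entries, though far apart, and the other neighbours of the 5 were undetected. miR-494 followed miR-329 by 1826 bases and preceded miR-679 by 220, and miR-134 followed miR-382 by 364 bases and preceded miR-668 by 631, all undetected. Before miR-370 lay miR-341, at 6750 bases, and after miR-882 lay miR-379, both undetected. Both arms of a hairpin were on the array as members for 11 hairpins, and for 10 of these neither arm was detected. The exception was miR-770, with its 3p arm detected and its 5p arm at a mean processed intensity of 0.17 at day 2-4 and 0.87 at day 8-10.

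**Figure D1:**
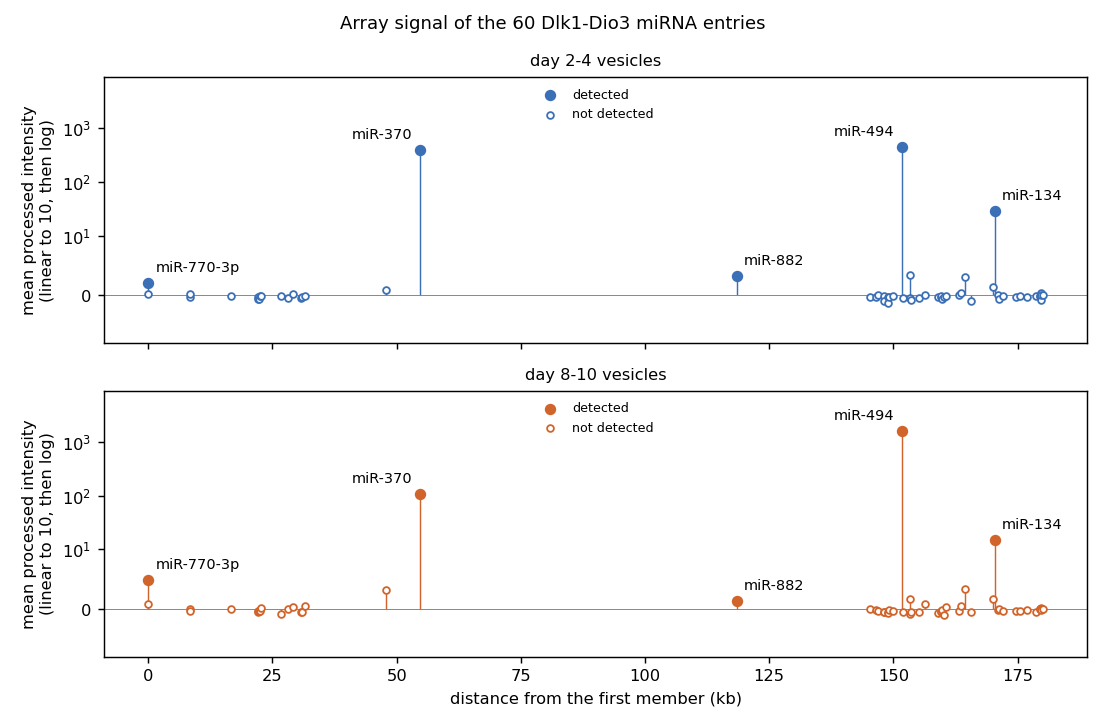
Mean processed intensity of each of the 60 members at day 2-4 (upper panel) and day 8-10 (lower panel), over all its probes and spots, against distance from the first member in kb. The vertical axis is linear up to 10 and logarithmic above. Filled points are the 5 detected members and open points the 55 undetected ones. The filled points are the same in both panels, and nearly all open points lie at the zero line.

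miR-494, known as a miRNA of the miR-379 to miR-410 part of the cluster, was the 1 member counted as higher at day 8-10. Its 14-base probe read 591 ± 13.4 (SD over 10 spots) at day 2-4 and 2249 ± 62.6 (10 spots) at day 8-10 in processed intensity. Its 15-base probe read 309 ± 7.90 and 1013 ± 15.3, again over 10 spots each. With both probes every spot at day 8-10 was above every spot at day 2-4, and all 20 spots of each array were well above background. Spots of an array are technical repeats. How many other miRNAs had spots apart in this way was not counted, here or for the members below. After scaling, miR-494 was 4.02-fold higher at day 8-10, a log2 difference of 2.01 (spot SE 0.011). This was the 6th highest difference among the 145 miRNAs detected on both arrays, of which 23 (15.9%) were at least 2-fold higher.

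miR-370, which RefSeq places within the span of Rian, went the other way. Its 14-base probe read 380 ± 55.4 (SD over 10 spots) at day 2-4 and 100.3 ± 8.75 (10 spots) at day 8-10, and its 15-base probe 405 ± 42.7 and 112 ± 10.9. All spots at day 8-10 lay below all spots at day 2-4, with all 20 spots of each array well above background. After scaling, miR-370 was 3.24-fold lower at day 8-10, a log2 difference of -1.70 (spot SE 0.052). It was the 3rd lowest of the 145, of which 11 (7.59%) were at least 2-fold lower.

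miR-134, best known from neurons, where it acts at dendrites, was lower at day 8-10 by less than the 2-fold set for a call. The means of its 4 probes, from 10 to 13 bases, were 26.3, 31.6, 32.4 and 26.2 at day 2-4 and 13.7, 17.3, 14.1 and 14.02 at day 8-10, over 5 spots each. Before scaling, the spots of the windows did not overlap within any probe, and all 20 spots of each array were well above background. The lowest spot of the 13-base probe was 19.4 at day 2-4, and its highest at day 8-10 was 17.2. Once divided by the scaling values of the arrays, 108 and 95.2, the spots of that probe did overlap. The scaled log2 difference of miR-134 was -0.77 (spot SE 0.074), or 1.71-fold lower, and the 4 probes gave differences from -0.998 to -0.66. It was the 16th lowest of the 145.

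miR-882 lies in the wide gap between miR-370 and miR-379 and was read by 1 of its 4 probes alone. The 20-base probe read 13.7 ± 0.735 (SD over 5 spots) at day 2-4 and 5.85 ± 1.38 (5 spots) at day 8-10, with 5 and then 4 of the 5 spots well above background. Its spots did not overlap between the windows. The probes of 17, 18 and 19 bases read -0.73, -0.37 and 0.05 at day 2-4 and 0.35, -0.91 and 0.10 at day 8-10, and none of them was detected in either window. The scaled log2 difference was -0.9975 (spot SE 0.115), which at 1.9965-fold fell just short of 2-fold. The day 8-10 value lay close to the lowest detected probe of that array, 5.55 in intensity, to which dimmer spots were raised.

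miR-770-3p, within the span of Meg3, was near the limit of detection in both windows. Its 13-base probe read 5.75 ± 1.49 (SD over 5 spots) at day 2-4 and 7.19 ± 1.37 (5 spots) at day 8-10, and the spots of the windows overlapped. Its 12-base probe was detected at day 8-10 alone, at 5.90 ± 0.864 against 1.54 ± 0.820, and its probes of 10 and 11 bases in neither window. In all, 3 of 20 spots were well above background at day 2-4 and 8 of 19 at day 8-10. The scaled log2 difference was 0.49 (spot SE 0.096). Spots below the lowest detected probe of their array had been raised to it, and after scaling that floor was itself 0.38 higher on the log2 scale at day 8-10.

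**Figure D2:**
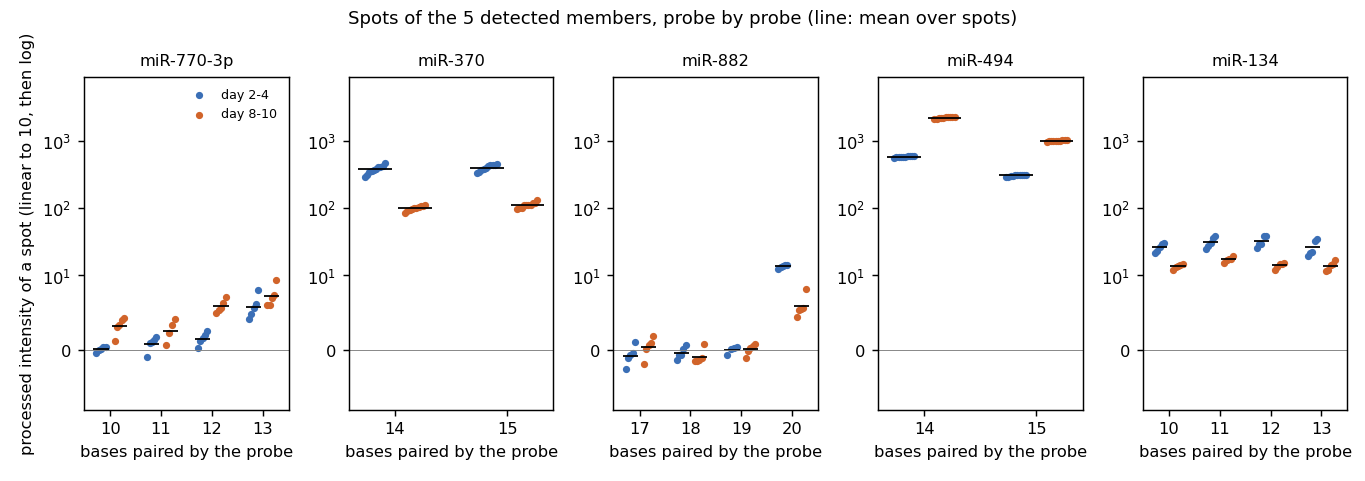
Processed intensity of every spot of the 5 detected members at day 2-4 and day 8-10, by the number of bases each probe pairs with. Points are spots and lines their means, on an axis that is linear up to 10 and logarithmic above. In these unscaled intensities the windows are apart for miR-370, miR-494, miR-134 and the 20-base probe of miR-882, and overlap for the 13-base probe of miR-770-3p.

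Over the members detected on either array, 1 of 5 was at least 2-fold higher at day 8-10, 1 was at least 2-fold lower and 3 lay within 2-fold. Their median log2 difference was -0.77, against 0.29 over all 177 miRNAs detected on either array and 0.20 over the 145 detected on both. With 5 values, the median is the value of miR-134. It was -0.89 without miR-494, and 0.035 where all probes of each miRNA were used in place of the detected ones. With detection set at the 95th percentile of negative control spots, the median over the 11 members then detected on either array was -0.23. Over the 225 miRNAs then detected on both arrays, a narrower condition, it was -0.23. The median over all miRNAs detected on either array was not taken for that setting. The level of all miRNAs depended on the scaling. Scaled to the 75th percentile over all probes, the 145 had a median of -0.30, with 10 at least 2-fold higher and 29 lower in place of 23 and 11. The other splits were 17 and 15 without scaling, 17 and 17 after quantile normalization, 19 and 18 with the software's gene signal, and 5 and 5 after normexp background correction. Relative to the median of the 145, miR-494 was higher by 1.80 and miR-370 lower, at -1.90, on the log2 scale. In the same terms miR-134 was at -0.98, miR-882 at -1.20 and miR-770-3p at 0.28.

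**Figure D3:**
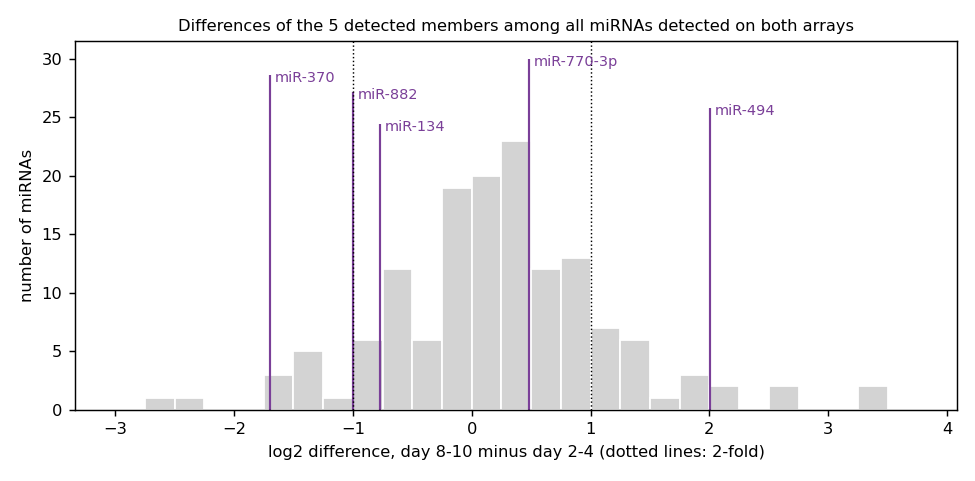
Log2 differences, day 8-10 minus day 2-4, of the 145 miRNAs detected on both arrays (grey histogram), with the 5 members as labelled lines and dotted lines at 2-fold. miR-494 lies beyond the upper dotted line at 2.01 and miR-370 beyond the lower at -1.70, with miR-882 on the lower line and the other members between.

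Across 17 alternative ways of processing the same spots, miR-494 stayed between 1.45 and 2.12 and miR-370 between -2.25 and -1.34, and both were called in the same direction each time. Some of the 17, such as the use of all probes, could not move these miRNAs, since all their probes were detected. The other detected members moved more. miR-134 ranged from -1.33 to -0.14, the latter under normexp correction with its offset of 50, and was at least 2-fold lower in 3 of the 17. miR-882 ranged from -1.63 to 0.035, was at least 2-fold lower in 10, and lost its direction where its 3 undetected probes were averaged in. miR-770-3p ranged from -0.023 to 1.3, at least 2-fold higher in 3 and with the sign turned where arrays were scaled over all probes.

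**Figure D4:**
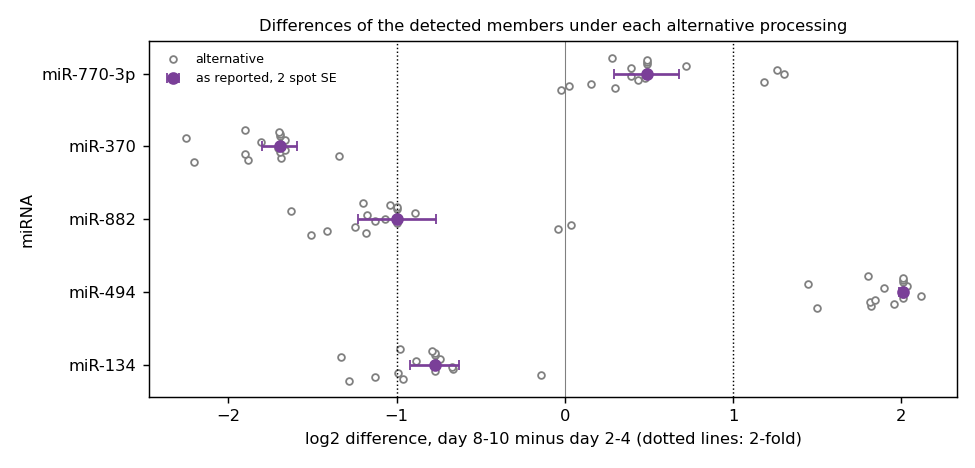
Log2 difference of each detected member under each of the 17 alternatives (open points) and as reported (filled points, bars of 2 spot SE), with dotted lines at 2-fold. All points of miR-494 lie above the upper line and all of miR-370 below the lower, while those of miR-770-3p and miR-882 lie on both sides of a dotted line and reach 0.

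The other 55 members were undetected on both arrays, and 53 of them had no spot well above background. Their mean processed intensities at day 2-4 ranged from -1.22 to 3.49 with a median of -0.17, and at day 8-10 from -0.93 to 3.31 with a median of -0.25. The negative control spots, made of 7 sequences meant to bind no miRNA, had medians of -0.23 (660 spots) and -0.33 (656 spots) and 95th percentiles of 1.25 and 1.43. That percentile is of single spots, while a member's mean is over up to 20, so lying below it says little: 52 of the 55 did at day 2-4 and 51 at day 8-10. The means of the 7 control sequences, each over more spots than a member has, ran from -0.50 to -0.19 at day 2-4 and from -0.61 to -0.05 at day 8-10. Above the highest of them lay 29 of the 55 members at day 2-4 and 20 at day 8-10. A member's mean is over fewer spots and varies more, so lying above the control means does not by itself show signal. The 55 members had 2 spots well above background of 1067 at day 2-4, and 1 of 1068 at day 8-10. An intensity at this level sets no amount; it says that the miRNA was not detectable with this array and input.

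Many of the best known members were in this group. miR-127, which together with miR-136, miR-431 and miR-433 lies antisense to Rtl1 and pairs perfectly with its messenger RNA, had mean intensities of 0.18 at day 2-4 and 0.28 at day 8-10. miR-136 had -0.15 and 0.59, miR-431 -0.14 and -0.83, and miR-433 -0.50 and -0.02. The names that bound the large group, miR-379 and miR-410, had -0.30 and 0.05, and 0.13 and -0.03. None of these miRNAs had a spot well above background. The same was so for miR-411 (-0.28 and -0.23), miR-299 (-0.01 and -0.37), miR-412 (0.33 and 0.13) and miR-154 (-0.30 and -0.28). miR-127, miR-136, miR-410 and miR-412 lay above the highest control sequence mean in both windows, which does not by itself show signal. The related entries miR-376a, miR-376b and miR-376c had -0.30, -0.67 and -0.32 at day 2-4 and -0.93, -0.14 and -0.71 at day 8-10. Both arms of miR-673 were undetected too, the 5p arm at -0.19 and -0.04 and the 3p arm at 0.20 and -0.29. The lowest means over the windows were those of miR-323-3p (-1.22 and -0.59), miR-544 (-0.94 and -0.56) and miR-380-3p (-0.93 and -0.50).

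Above the 95th percentile of the negative controls without passing the detection rule were miR-666-5p, miR-539 and miR-382 in both windows and miR-341 at day 8-10. Their sequences, with the seed in capitals, are given as those nearest to detection. They lie at chr12:109717103-109717124, chr12:109728136-109728157, chr12:109733781-109733802 and chr12:109611556-109611576 of GRCm38.p6.
miR-666-5p: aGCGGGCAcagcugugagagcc
miR-539-5p: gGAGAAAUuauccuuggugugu
miR-382-5p: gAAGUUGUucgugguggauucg
miR-341-3p: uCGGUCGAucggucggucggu

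miR-666-5p had a mean intensity of 3.49 at day 2-4, with 1 of 20 spots well above background, and 1.66 with none at day 8-10. miR-539 had 3.03 and 3.31 with 1 of 20 spots in each window. miR-382, the neighbour of miR-134, had 1.43 and 1.65 with no such spot. miR-341, the neighbour of miR-370 within Rian, had 0.93 at day 2-4 and 3.20 at day 8-10, also with no such spot. The software's own gene flag was more permissive than the rule used here and marked 7 members in each window, adding miR-666-5p and miR-539 at day 2-4 and miR-341 and miR-539 at day 8-10 to the 5. No difference between the windows is given for these 4, since both values lay below the lowest detected probe, at 4.86 on the first array and 5.55 on the second.

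**Figure D5:**
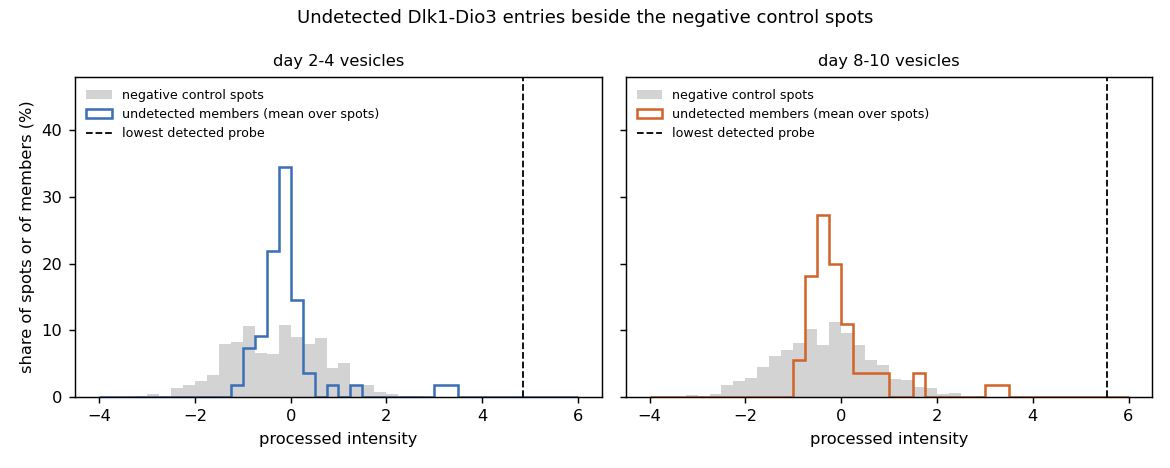
Distribution of the mean processed intensity of the 55 undetected members (outline) and of the single negative control spots (grey) at day 2-4 and day 8-10, as a percentage of members or of spots. The dashed line is the lowest detected probe. Member means are over up to 20 spots and so are narrower than single spots; a few members lie to the right of the controls, below the dashed line.

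The detected and undetected members were set side by side for base composition, as a description. GC content of the mature sequence ran from 45.5% to 72.7% with a median of 59.1% over the 5 detected members. Over the 52 undetected members with a sequence it ran from 23.8% to 72.7% with a median of 50%. The ranges overlapped widely: 38 of the 52 had a GC content at or above the lowest of the detected members, and 11 of the 52 against 2 of the 5 were at 60% or more. The part of base composition in detection was not tested.

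Outside the range, the nearest entries of the chromosome were miR-345-5p and miR-345-3p before it and, star entries left out, miR-203 after it. miR-345-5p was detected in both windows, with mean intensities of 16.9 and 14.8 and a log2 difference of -0.04. miR-345-3p had -0.19 and 1.65, and miR-203 had -0.01 and -0.09, and neither was detected.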

How the data were processed

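Total RNA of vesicles was measured on 1-colour Agilent miRNA arrays. Per the file headers, the deposited unit is linear spot intensity, from version 9.5.3.1 of Feature Extraction. The authors' software had subtracted a spatial background surface, which leaves some dim spots below 0, and had not normalized one array to the other. The deposited series value table held the same values.

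Control spots and outlier spots were left out, which for members left 1166 of 1199 spots at day 2-4 and 1167 at day 8-10; none was saturated. Intensities were divided by their 75th percentile, taken on each array over 279 probes found on both (108 and 95.2). Spots were floored at the array's lowest detected probe (4.86 and 5.55), converted to log2 and averaged per probe. Probes detected on at least 1 array were averaged to give the miRNA. A call needed detection on both arrays, a 2-fold difference and more than 2 spot SE. The calculation was tested on simulated arrays with known changes well beyond 2-fold. That test compared medians of groups of miRNAs, with the shift of unchanged miRNAs taken off. It therefore does not check the scaling, or single miRNAs near 2-fold or near the floor.

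The members, the lists and the thresholds were chosen with earlier results of these data known. Named were all detected members, those with a spot well above background, the 3 highest and 3 lowest undetected, the first and last, the nearest entries outside, and well-known members of the cluster; miR-382 and miR-341 were named also for lying above the negative controls. Alternatives changed the scaling, background correction, summary, floor, outlier spots, detection rule and fold. Python 3.11.15 (numpy 2.4.6, pandas 2.3.3) and R 4.3.3 with limma 3.58.1 (normexp, offset 50) were used.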

Additional observations from a re-analysis of the deposited data

How the results depend on the processing

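The calls of miR-494 and miR-370 held under all 17 alternatives, and outlier spots kept or the deposited series table changed no member's call. Some alternatives could not move miR-494 or miR-370, whose probes were all detected and lay far above the floor. Such were the series table, the floor of 1, the use of all probes and detection by every probe. Where results moved, the cause was not tested unless stated. Scaling over all probes turned miR-770-3p to -0.023, gave 3 lower members and a median of -1.28. No scaling gave 2 lower and -0.96, quantile normalization 3 and -1.13, and normexp correction a median of -0.042. The normexp correction added an offset of 50 to every spot, more than any processed spot of miR-134, miR-882 or miR-770-3p read. Such an offset draws log2 differences of dim miRNAs toward 0. The software's gene signal gave 2 higher, 2 lower and a median of -0.99. Using all probes turned miR-882, and with it the median, to 0.035, since 3 of its probes then entered at the floor. The median was -0.66 with the brightest probe alone and -0.67 with medians over spots (2 lower). A floor of 1, and detection by at least 1 spot (median -0.70), each gave 2 higher and 2 lower. Detection above the 95th percentile of negative controls gave 8 and 11 detected members, 4 lower and a median of -0.23 over members detected on either array. Of the 225 miRNAs then detected on both arrays, 43 were lower and 20 higher, with a median of -0.23. Detection by every probe gave 3 and 3. A 1.5-fold threshold gave 3 lower. Of the alternatives chosen after seeing the data, linear averaging gave 2 lower, and leaving out miR-494 a median of -0.89. No paired analysis was possible because each window had 1 array. Signal over background limits miR-770-3p and miR-882, which lay near the floor.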
